A study of Rattus norvegicus with 24 samples.

Results

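Tac1, Tac3, Tacr1, Tacr3, Kiss1 and Kiss1r, the genes of the tachykinin and kisspeptin peptides and of their receptors, were taken by gene name from a table of RNAseq read counts, and all 6 were found among its 35032 genes. The counts came from 24 libraries of brain tissue from male Sprague-Dawley rats, 7 weeks old when bought, 3 in each of 8 groups, which were formed by 2 regions and 4 treatments. One region was the hypothalamic paraventricular nucleus (PVN), which drives the stress axis and releases oxytocin and vasopressin, and the other the central amygdala (CEA). Normal control rats (NC) had no operation, and hepatectomy rats (HT) had part of the left liver lobe removed. The remaining rats had the same hepatectomy and were needled at Zusanli and Sanyinjiao, with current (electroacupuncture, EA) or with none (sham, SEA). By the study's methods the NC and HT rats were restrained for the same time as the needled rats, so restraint was shared by all groups, and the brains were collected a day after stimulation ended. No transgene or mutation is named for the rats.

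Tachykinins are short peptides that act on G protein-coupled receptors of the Gq class. Tac1 encodes substance P and neurokinin A, Tacr1 encodes the main receptor of substance P, and Tac3 encodes neurokinin B, which acts on the product of Tacr3. Kiss1 encodes kisspeptin, which acts through Kiss1r and drives the neurons that release gonadotropin-releasing hormone; in the arcuate nucleus, a hypothalamic nucleus near the PVN, a single neuron type makes kisspeptin, neurokinin B and dynorphin together.

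In the deposited coordinates, whose assembly the table does not name and which fit Rnor_6.0, all 6 were protein-coding genes. Tac1 (ENSRNOG00000007374) lay on chromosome 4 from 33638709 to 33646819 on the plus strand, and Tacr1 (ENSRNOG00000005853) on the same chromosome from 113247795 to 113414504 on the plus strand. Tac3 (ENSRNOG00000004229) lay on chromosome 7 from 71023976 to 71030582 on the plus strand, and Kiss1r (ENSRNOG00000011954) on that chromosome from 12606210 to 12609868 on the minus strand. Tacr3 (ENSRNOG00000009372) lay on chromosome 2 from 240021152 to 240118971 on the plus strand. Kiss1 (ENSRNOG00000047481) lay on chromosome 13 from 50529510 to 50535389 on the minus strand. RefSeq's GRCr8 puts Kiss1 on the plus strand, and 6 of the 8 genes within 400 kb of it that could be matched were likewise on the opposite strand there.

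Promoter sequences from RefSeq (GRCr8) matched 5 of the 6 genes. The 250 bases before the annotated start are shown for Kiss1 and Tacr3, the pair that passed an unadjusted threshold between HT and NC in the PVN, and for Kiss1r, whose promoter lacked the element the others held. Capitals mark TGACG or its reverse complement CGTCA, the half-site of the cAMP response element. Kiss1 is at chr13:47326909-47327158 on the plus strand, Tacr3 at chr2:225940247-225940496 on the plus strand and Kiss1r at chr7:10439425-10439674 on the minus strand, all printed 5′ to 3′ in the direction of transcription.
Kiss1: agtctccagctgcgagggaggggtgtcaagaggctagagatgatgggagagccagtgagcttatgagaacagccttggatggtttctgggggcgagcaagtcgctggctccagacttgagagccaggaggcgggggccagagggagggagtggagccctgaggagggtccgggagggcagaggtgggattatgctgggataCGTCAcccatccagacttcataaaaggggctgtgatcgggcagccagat
Tacr3: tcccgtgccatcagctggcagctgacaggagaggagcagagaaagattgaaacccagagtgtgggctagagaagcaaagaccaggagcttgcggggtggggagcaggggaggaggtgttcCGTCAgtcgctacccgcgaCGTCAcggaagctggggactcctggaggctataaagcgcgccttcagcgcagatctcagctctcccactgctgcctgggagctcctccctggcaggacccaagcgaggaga
Kiss1r: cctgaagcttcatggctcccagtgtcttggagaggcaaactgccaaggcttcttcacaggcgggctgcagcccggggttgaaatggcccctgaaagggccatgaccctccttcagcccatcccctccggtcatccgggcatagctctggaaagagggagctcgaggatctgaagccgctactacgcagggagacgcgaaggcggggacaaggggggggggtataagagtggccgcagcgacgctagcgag

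The half-site was found on either strand in 4 of the 5 promoters, and in 18.2% of the 33469 rat promoter windows of this length. It began 49 bases before the start of Kiss1, 69 before that of Tacr1, 206 before that of Tac1, and 130 and 111 before that of Tacr3. The oestrogen response half-site GGTCA was found in Kiss1r and Tacr1 and in 35.4% of all windows, and the glucocorticoid response half-site TGTTCT only in Kiss1 among the 5 and in 17.5% of all windows. The letters TATAAA were found in Tacr1 and Tacr3 (12.9% of all windows) and the E-box CACGTG in Tac1 (5.59%). Both strands were searched for each element. A match shows that the letters are present and not that a factor binds.

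Total counts were 13152772 to 18607032 per library. Levels are given as CPM, that is, counts brought to a common library size with TMM factors. A gene with 0 counts could still have had up to 3, or 0.158 to 0.236 CPM depending on the library, a limit that covers counting error only. Markers of the labelled regions were set beside them. A gene tested between regions could have passed the filter on low counts through a single region, so counts over marker lists are given for genes that passed it in both. Of 7 PVN genes on the list, 6 did so, and these 6 were lower in the CEA, with a summed level of the whole list of 436 to 1353 CPM in the PVN and 51.0 to 199 CPM in the CEA. Of 5 central amygdala markers, 4 were higher in the CEA and 1, Nts, was lower. Of those 4, Prkcd ran from 20.1 to 552 CPM in the CEA and from 14.5 to 158 CPM in the PVN. Whether the 4 came from central amygdala cells was not tested. Markers of other structures were found too, and bulk tissue does not show which cells held them. The 7 striatal markers summed to 2146 to 6570 CPM in the CEA against 283 to 467 CPM in the PVN, and the arcuate and ventromedial markers to 28.4 to 106.5 CPM in the PVN against 5.51 ± 1.44 CPM (SD, n = 12) in the CEA. Choroid plexus markers reached 1777 CPM in 1 CEA library and were 6.66 CPM in another. Among the remaining markers, 1 of 1 lateral hypothalamic and 2 of 4 thalamic genes were lower in the CEA. Higher there were 1 of 1 suprachiasmatic, 1 of 3 habenular, 1 of 4 choroid plexus and 1 of 4 cortical and hippocampal genes. The suprachiasmatic gene was Vip, and the other 2 of its list, Six6 and Lhx1, passed the filter through the PVN alone. PVN NC replicate 2 stood apart from replicates 1 and 3 of its group in several of the genes below, and PVN NC replicate 1 was the lowest PVN library in the summed central amygdala, thalamic, and cortical and hippocampal markers. CEA EA replicate 2 had 3.80% of its counts on mitochondrial genes where the other CEA libraries had 10.1% to 14.4%.

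**Figure D1:**
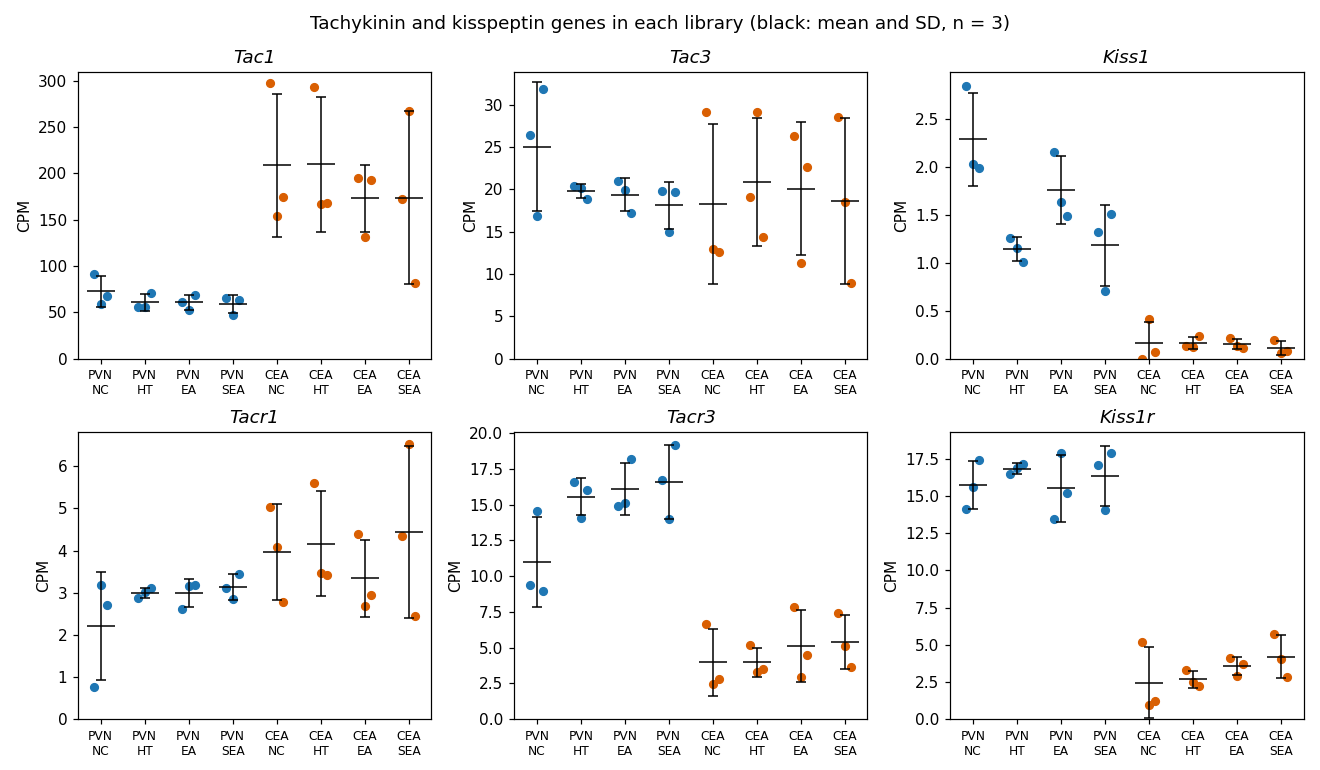
CPM (linear axis from 0) of the 6 genes in each library, PVN groups in blue and CEA groups in orange, with the mean and SD of each group of 3 in black. Kiss1, Kiss1r and Tacr3 were higher in the PVN, Tac1 was higher in the CEA, and the SDs of Tac1 were 36.3 to 93.2 CPM in the CEA groups and 7.98 to 16.5 CPM in the PVN groups.

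On a scale that allows genes to be compared, CPM per kilobase of the deposited gene length, the order of levels in the PVN was Tac1 (53.8 ± 9.52, SD, n = 12), Tac3 (28.5 ± 6.25), Kiss1r (10.7 ± 1.05), Tacr3 (6.86 ± 1.42), Tacr1 (2.32 ± 0.567) and Kiss1 (1.64 ± 0.602). Only Tacr1 and Kiss1 were neighbours whose means lay closer together than the sum of their SDs. In the CEA the order was Tac1 (162 ± 55.1), Tac3 (26.9 ± 10.4), Tacr1 (3.25 ± 1.04), Kiss1r (2.14 ± 0.963), Tacr3 (2.13 ± 0.859) and Kiss1 (0.153 ± 0.112), and the 3 receptors there did not differ beyond their spread. The peptide genes Tac1 and Tac3 thus had the highest means in both regions. In the PVN of NC rats alone, Kiss1 (2.36 ± 0.498, SD, n = 3) had a higher mean than Tacr1 (1.81 ± 1.05), again within their spread.

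To compare the regions, all 24 libraries were fitted with treatment as a covariate. Of the 6 genes, 5 passed the filter on low counts in both regions, and Kiss1 passed it through the PVN libraries alone, so that its difference is a description. Of those 5, 4 passed an adjusted p of 0.05 in the quasi-likelihood test of edgeR, Tac1 and Tacr1 with more in the CEA and Tacr3 and Kiss1r with more in the PVN. A call between regions was common, with 56.3% of all 17768 genes tested and 56.1% of the 16605 that passed the filter in both regions. The labels do not tie libraries to single rats. By the methods 12 rats made up the 4 treatment groups, and brain samples were taken from different rats of one batch, so whether PVN and CEA libraries shared rats is not known here, and these p-values measure the spread between libraries. In bulk tissue, fewer cells of a type and less RNA per cell cannot be told apart.

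**Figure D2:**
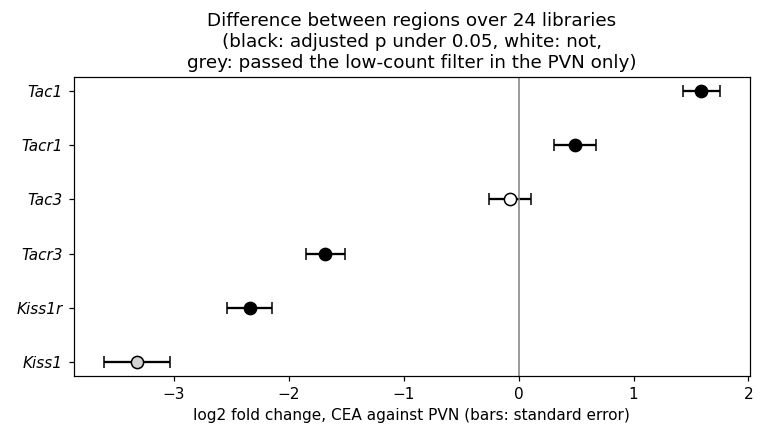
Log2 fold change of the CEA against the PVN with its standard error (24 libraries), black where the adjusted p was under 0.05, white where it was not, and grey for Kiss1, which passed the filter on low counts through the PVN alone. Of the other 5, Kiss1r lay furthest to the PVN side at -2.34 and Tac1 furthest to the CEA side at 1.59, and Tac3 lay at -0.07.

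Tac1 was at 63.4 ± 11.2 CPM in the PVN (SD, n = 12) and at 191 ± 64.9 CPM in the CEA. In the PVN it ran from 47.6 to 91.2 CPM and the means of NC, HT, EA and SEA were 72.7 ± 16.5, 60.9 ± 8.82, 60.9 ± 7.98 and 59.1 ± 9.94 (SD, n = 3). In the CEA the NC libraries held 297, 154 and 175 CPM, the HT libraries 293, 167 and 168, the EA libraries 195, 131 and 193, and the SEA libraries 172, 268 and 81.3. The regions overlapped by a single CEA library, SEA replicate 3, which lay below the highest PVN library. Tac1 was 3.01-fold higher in the CEA (log2 fold change 1.59, SE 0.16, edgeR adjusted p = 8.47e-09).

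Tac1 is also a gene of the striatal neurons of the direct pathway, and the striatal markers moved with it. All 7 were higher in the CEA, with a median log2 fold change of 4.29 beside -0.01 over all genes. The 3 CEA libraries with the most Tac1, NC replicate 1, HT replicate 1 and SEA replicate 2, were also the 3 with the highest striatal sums, at 6053, 6570 and 6462 CPM. The lowest in both were SEA replicate 3, with 2146 CPM of striatal markers, and then EA replicate 2, with 2380. The part of striatal tissue in the Tac1 difference was not tested.

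**Figure D3:**
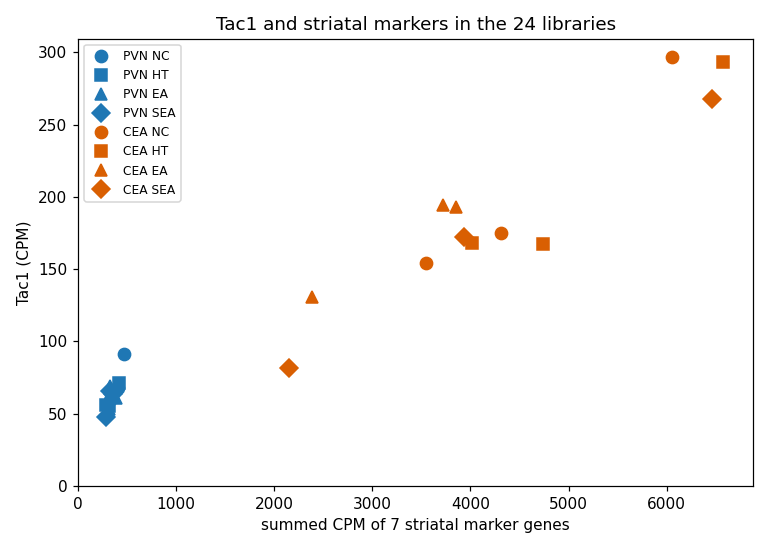
Tac1 CPM (vertical) against the summed CPM of 7 striatal markers (horizontal) in the 24 libraries, PVN in blue and CEA in orange, with a marker shape for each treatment. PVN libraries lay between 283 and 467 CPM of striatal markers, and in the CEA both quantities were lowest in SEA replicate 3.

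Tac3, the neurokinin B gene, did not pass the test between regions. It was at 20.6 ± 4.52 CPM in the PVN and 19.5 ± 7.51 CPM in the CEA (SD, n = 12), a log2 fold change of -0.07 (SE 0.18, adjusted p = 0.759), and the sign turned to 0.02 without PVN NC replicate 3. The PVN NC libraries held 26.4, 16.8 and 31.9 CPM, and the other PVN libraries 14.9 to 21.0 CPM. In the CEA every treatment held libraries on both sides of the PVN mean, with the NC libraries at 29.1, 13.02 and 12.6 CPM, the HT libraries at 19.1, 29.1 and 14.4, the EA libraries at 26.3, 11.3 and 22.6, and the SEA libraries at 28.5, 18.5 and 8.91. Each CEA group thus held high and low libraries.

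Tacr3, the neurokinin B receptor gene, was higher in the PVN, at 14.8 ± 3.07 CPM against 4.59 ± 1.85 CPM in the CEA (SD, n = 12). Its lowest PVN library, at 8.96 CPM, was above its highest CEA library, at 7.85 CPM. The log2 fold change was -1.68 (SE 0.17, adjusted p = 1.21e-08). Tac3 in the CEA was at 0.951 times the PVN level and Tacr3 at 0.312 times, and the difference between the peptide and its receptor gene was not tested.

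Tacr1, the substance P receptor gene, was low in both regions, with 12 to 60 counts in PVN libraries and 31 to 104 in CEA libraries. It was at 2.83 ± 0.694 CPM in the PVN and 3.98 ± 1.27 CPM in the CEA, and the regions overlapped. It was 1.40-fold higher in the CEA (log2 fold change 0.49, SE 0.19, adjusted p = 0.0285). The 3 CEA libraries highest in Tacr1 were those highest in Tac1 and striatal markers, and the call did not survive when any of them was left out: the adjusted p was 0.0551 when CEA NC replicate 1 was dropped, 0.0562 for CEA HT replicate 1 and 0.0662 for CEA SEA replicate 2. It was also lost with the replicate number as a block (0.47, adjusted p = 0.0786).

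Kiss1r, the kisspeptin receptor gene, had the least spread of the 6 in the PVN, with a coefficient of variation of 9.76% over 12 libraries that ran from 13.5 to 17.9 CPM. In the CEA it ran from 0.947 to 5.74 CPM with a coefficient of variation of 44.9%. It was at 16.1 ± 1.57 CPM in the PVN and 3.22 ± 1.45 CPM in the CEA, with no overlap, a log2 fold change of -2.34 (SE 0.19, adjusted p = 4.36e-10). The CEA libraries highest in Kiss1r, SEA replicate 1, NC replicate 1 and EA replicate 1, were also the 3 highest in Tacr3, and NC replicates 2 and 3 were the lowest in Kiss1r.

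Kiss1 was detected in the PVN and was at or near the detection limit in the CEA. PVN libraries held 11 to 45 counts, and CEA libraries 0 to 7, with 10 of the 12 at 3 counts or fewer. The level was 1.59 ± 0.584 CPM in the PVN against 0.148 ± 0.108 CPM in the CEA, with a fitted log2 fold change of -3.32 (SE 0.28) that is given with no test, since Kiss1 entered the fit through the PVN libraries. The lowest PVN library, SEA replicate 2 at 0.712 CPM, was above the highest CEA library, NC replicate 2 at 0.414 CPM. Kisspeptin neurons of the hypothalamus are known from the arcuate nucleus and the anteroventral periventricular area, and the 2 arcuate and ventromedial markers that passed the filter in both regions, Pomc and Agrp, were lower in the CEA, while 3 others passed it through the PVN alone. Their part in the PVN signal was not tested.

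Other genes of these pathways were counted in the same comparison, over those that passed the filter on low counts in both regions, where 56.1% of all genes were called, and counts near that share are no result about a pathway. Of 10 other tachykinin and RF-amide peptides and receptors, 4 passed the filter in both regions, and of these 2 were lower in the CEA and 0 higher, with a median log2 fold change of -1.10. Npvf, which encodes the gonadotropin-inhibiting RF-amide peptides, was at 16.8 ± 8.56 CPM in the PVN (SD, n = 12) and had a count in 1 CEA library only, and it passed the filter through the PVN alone. Npffr1, its receptor gene, was lower in the CEA by a log2 fold change of -2.17 (SE 0.25, adjusted p = 8.67e-08), and Qrfpr, the receptor gene of another RF-amide peptide, by -1.97 (SE 0.35, adjusted p = 4.74e-05). Tac4 and Tacr2, the remaining tachykinin and tachykinin receptor genes, were too low to be tested.

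Of 8 genes of the reproductive axis, 6 passed the filter in both regions, and of these 5 were lower in the CEA and 1 was higher, with a median of -1.35. Nr5a1, a transcription factor of the ventromedial hypothalamus, passed it through the PVN alone, at 6.66 ± 1.62 CPM there and 0.175 ± 0.171 CPM in the CEA (SD, n = 12). Esr1, oestrogen receptor alpha, was lower in the CEA by -2.63 (SE 0.15), and Gnrh1, the gonadotropin-releasing hormone gene, by -1.80 (SE 0.37). Pdyn, the dynorphin gene, was the one that was higher in the CEA, by 0.63 (SE 0.14, adjusted p = 0.000357).

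Among 9 genes of peptide processing and breakdown that passed in both regions, 3 were higher and 4 lower in the CEA, with a median of 0.085, so that 77.8% were called where 56.1% of all genes were. Mme, the neprilysin gene, whose enzyme degrades substance P, was higher by 1.30 (SE 0.20), Ace by 0.77 (SE 0.18) and Cpe, carboxypeptidase E, by 0.25 (SE 0.05). The prohormone convertase gene Pcsk1 was lower by -2.19 (SE 0.19), Ece2 by -1.22 (SE 0.10) and the amidating enzyme gene Pam by -1.10 (SE 0.05). Of 17 genes of Gq signalling that did so, 9 were higher and 2 lower, with a median of 0.28, so that 64.7% were called beside the same 56.1%. Itpr1, an inositol trisphosphate receptor, was higher by 2.17 (SE 0.17), Prkcb, a protein kinase C, by 1.56 (SE 0.11) and Rgs4, a regulator of G protein signalling, by 1.18 (SE 0.14). Gna14, a Gq family subunit, passed the filter through the PVN alone, at 1.35 ± 0.273 CPM there and 0.467 ± 0.192 CPM in the CEA (SD, n = 12). Arrb2, an arrestin, was lower by -0.71 (SE 0.07) and the receptor kinase gene Grk2 by -0.24 (SE 0.04).

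To ask whether hepatectomy moved these genes in the PVN, HT was compared with NC. The mean of Kiss1 was lower after hepatectomy, with an adjusted p that did not pass the threshold. The NC libraries held 45, 37 and 36 counts and the HT libraries 21, 18 and 17, which is 2.85, 2.03 and 1.99 CPM against 1.26, 1.16 and 1.01 CPM. Every HT library was below every NC library, and the group means were 2.29 ± 0.483 and 1.14 ± 0.122 CPM (SD, n = 3). The log2 fold change was -0.995 (SE 0.27), with an unadjusted p = 0.00703 and an adjusted p = 0.418 in edgeR. By unadjusted p Kiss1 ranked 117 of the 16727 genes tested.

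Kiss1 was the only one of the 6 whose PVN HT and NC libraries did not overlap, where 17.1% of all genes tested had no overlap. By adjusted p, 0 of the 6 were called against a background of 0.012% of genes, and by unadjusted p 2 were, Kiss1 and Tacr3, against a background of 11%; DESeq2 likewise called 0 and 2. Tacr3 moved the other way, with 9.36, 14.6 and 8.96 CPM in NC and 16.6, 14.1 and 16.0 CPM in HT, a log2 fold change of 0.50 (SE 0.21, unadjusted p = 0.0467, adjusted p = 0.418). NC replicate 2 lay within the HT range, so the groups overlapped.

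The other members did not pass either threshold between HT and NC in the PVN. The log2 fold change was -0.26 for Tac1 (SE 0.18), -0.34 for Tac3 (SE 0.22), 0.42 for Tacr1 (SE 0.45) and 0.10 for Kiss1r (SE 0.13). Tacr1 had 12 counts in NC replicate 1, where the other PVN libraries held 41 to 60, and its log2 fold change was 0.0174 without that library. The same library was low in summed markers of other structures. The central amygdala list summed to 116 CPM there, against 199 and 173 CPM in NC replicates 2 and 3. Within that list Prkcd was at 14.5 CPM against 97.5 and 62.2, but Wfs1 was at 40.4 CPM against 35.5 and 35.2. Cortical and hippocampal markers summed to 4.49 CPM against 18.3 and 16.7 CPM. The part of those structures in the Tacr1 value was not tested. PVN NC replicate 2 was nearer to the HT libraries than were replicates 1 and 3 in Tac1, Tac3 and Tacr3. Without it, 3 of the 6 passed the adjusted threshold, Tac3 at -0.56 (adjusted p = 0.0151), Tacr3 at 0.76 (adjusted p = 0.0101) and Kiss1 at -1.08 (adjusted p = 0.0484), but so did 3418 genes in all; without any other library, 0 of the 6 passed.

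Arcuate and ventromedial markers were set beside these values. Of the 5 tested, 4 had an unadjusted p under 0.05 between HT and NC, where 11% of all genes did, and 0 an adjusted one, with a median log2 fold change of -0.51, and Npy, the sixth on the list, was between 0 and 0.239 CPM in all PVN libraries. Their summed level was 98.8, 104 and 106.5 CPM for the NC libraries, 63.7, 63.3 and 85.8 for HT, 78.2, 85.8 and 65.7 for EA, and 86.5, 28.4 and 61.7 for SEA. All NC libraries were above all operated libraries in this sum, as they were in Kiss1 except for EA replicate 1. PVN SEA replicate 2 was the lowest PVN library both in Kiss1, at 0.712 CPM, and in these markers, with Agrp, the gene of an arcuate feeding peptide, at 0.841 CPM where the other PVN libraries held 5.46 to 13.5. The gene Agrp was named after its values were seen. The part of arcuate tissue in the Kiss1 differences was not tested. The PVN markers had 3 of 7 at an unadjusted p under 0.05, beside the same 11%, with a median of -0.55. These were Avp at 0.683-fold, Crh at 0.584-fold and Trh at 0.573-fold, while Sim1 was at 1.07-fold and Pou3f2 at 1.08-fold. The list summed to 436 CPM in HT replicate 3 against 934 and 980 CPM in the other HT libraries. Its genes were named here after their values were seen.

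Markers of other structures near the PVN were compared between HT and NC as well. Of them, 0 passed an adjusted p, where 0.012% of all genes did. Of 4 thalamic markers 2 had an unadjusted p under 0.05, where 11% of all genes did. They were Gbx2 at 2.45-fold and Slc17a6 at 1.23-fold (edgeR adjusted p = 0.418 for both). The median log2 fold change of the list was 0.56. The thalamic markers summed to 301, 442 and 419 CPM in the NC libraries and to 549, 550 and 412 CPM in the HT libraries. The groups thus overlapped. Of these sums Slc17a6 alone held 257, 333 and 317 CPM in NC and 401, 388 and 325 CPM in HT. Of 4 choroid plexus markers 1 had an unadjusted p under 0.05, beside the same 11%. It was Ttr at 0.279-fold (edgeR adjusted p = 0.418), and the median of the list was -0.45. The choroid plexus markers summed to 13.4 to 17.4 CPM in NC and to 9.96 to 11.3 CPM in HT, with no overlap. Among single genes 17.1% had none. Of 7 striatal markers 1 had an unadjusted p under 0.05, and 0 of the tested lateral hypothalamic, suprachiasmatic, central amygdala, cortical and hippocampal, and habenular markers had one. These genes were named after their values were seen, and the part of these structures in the differences of Kiss1 and Tacr3 was not tested.

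**Figure D4:**
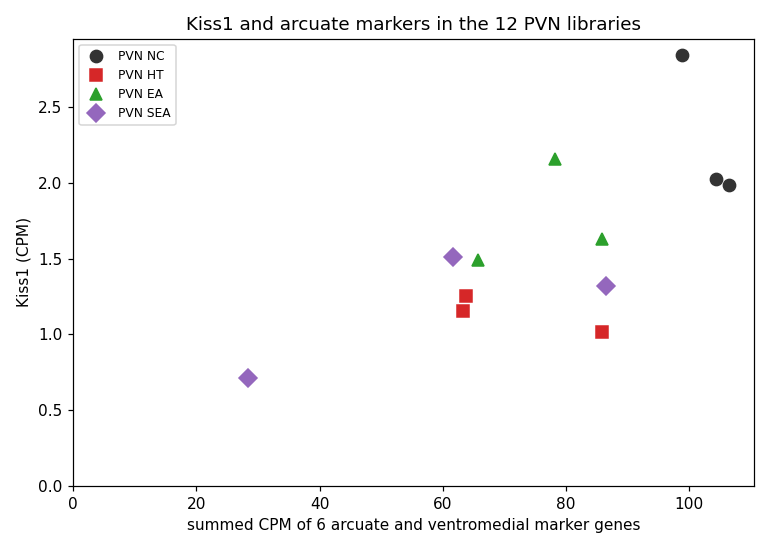
Kiss1 CPM (vertical) against the summed CPM of 6 arcuate and ventromedial marker genes (horizontal) in the 12 PVN libraries, with a colour and shape for each treatment. The 3 NC libraries lay highest in the markers and SEA replicate 2 lowest in both, and the marker sums of the HT libraries, 63.3 to 85.8 CPM, and of the EA libraries, 65.7 to 85.8 CPM, overlapped.

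Electroacupuncture was compared with hepatectomy alone in the PVN. The EA libraries held 34, 31 and 28 Kiss1 counts, which is 2.16, 1.63 and 1.49 CPM, with a mean of 1.76 ± 0.352. All were above all HT libraries, and 2 of the EA libraries were below all NC libraries. The log2 fold change of EA against HT was 0.62 (SE 0.27, unadjusted p = 0.0502, adjusted p = 0.880), which passed neither threshold. HT against NC and EA against HT share the HT libraries, so the opposite signs are not independent. Marker sums of the arcuate list overlapped between EA and HT. Of 5 markers, 0 had an unadjusted p under 0.05, where 5.67% of all genes did. Other lists had members past that threshold, beside the same 5.67%, with 0 past an adjusted p (0.0961% of all genes). Of 7 PVN markers 3 were, Avp at 1.37-fold, Crh at 1.49-fold and Trh at 1.38-fold. The list summed to 934, 980 and 436 CPM in HT and 1143, 1063 and 921 CPM in EA, with overlap. In HT against NC Crh was at 0.584-fold. By RT-PCR and western blot the study reported the opposite, a rise of CRH in the PVN after hepatectomy and a fall with EA. Of 4 choroid plexus markers 2 had an unadjusted p under 0.05, Kl at 1.46-fold and Folr1 at 1.48-fold. The list summed to 9.96 to 11.3 CPM in HT and 13.3 to 16.2 CPM in EA, with no overlap. Among single genes 11.3% had none. Of 5 central amygdala markers only Meis2 did, at 1.26-fold, and the others ran from 0.740-fold (Prkcd) to 1.09-fold (Calcrl). Of the tested habenular markers only Chrna3 did, at 0.654-fold, and the others ran from 0.853-fold (Gpr151) to 1.09-fold (Chrnb4). These genes were named after their values were seen, and the part of these structures in the Kiss1 values was not tested.

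Kiss1 was the only member without overlap between EA and HT, against 11.3% of all genes. Of the 6 members, 0 passed an adjusted p, where 0.0961% of genes did, and 0 an unadjusted p, where 5.67% did; DESeq2 also called 0 by either. The other members had log2 fold changes of 0.0039 for Tac1 (SE 0.12), -0.03 for Tac3 (SE 0.10), -0.0011 for Tacr1 (SE 0.19), 0.05 for Tacr3 (SE 0.12) and -0.11 for Kiss1r (SE 0.12).

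Sham needling left Kiss1 at 22, 11 and 25 counts, or 1.32, 0.712 and 1.51 CPM, with a mean of 1.18 ± 0.418. These values overlapped those of HT and EA. SEA against HT gave a log2 fold change of 0.05 (SE 0.34, adjusted p = 0.993) and EA against SEA one of 0.57 (SE 0.33, unadjusted p = 0.124, adjusted p = 0.949).

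In SEA against HT the other members had log2 fold changes of -0.04 for Tac1 (SE 0.14), -0.13 for Tac3 (SE 0.12), 0.07 for Tacr1 (SE 0.18), 0.09 for Tacr3 (SE 0.13) and -0.04 for Kiss1r (SE 0.11). Here 0 of the 6 passed an adjusted p (0% of all genes) or an unadjusted p (4.38% of all genes). In EA against SEA they were 0.05 for Tac1 (SE 0.13), 0.10 for Tac3 (SE 0.13), -0.07 for Tacr1 (SE 0.20), -0.04 for Tacr3 (SE 0.13) and -0.07 for Kiss1r (SE 0.13), and 0 of the 6 passed an adjusted p (0% of all genes) or an unadjusted one (5.21%). DESeq2 called 0 members in both comparisons by either rule.

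**Figure D5:**
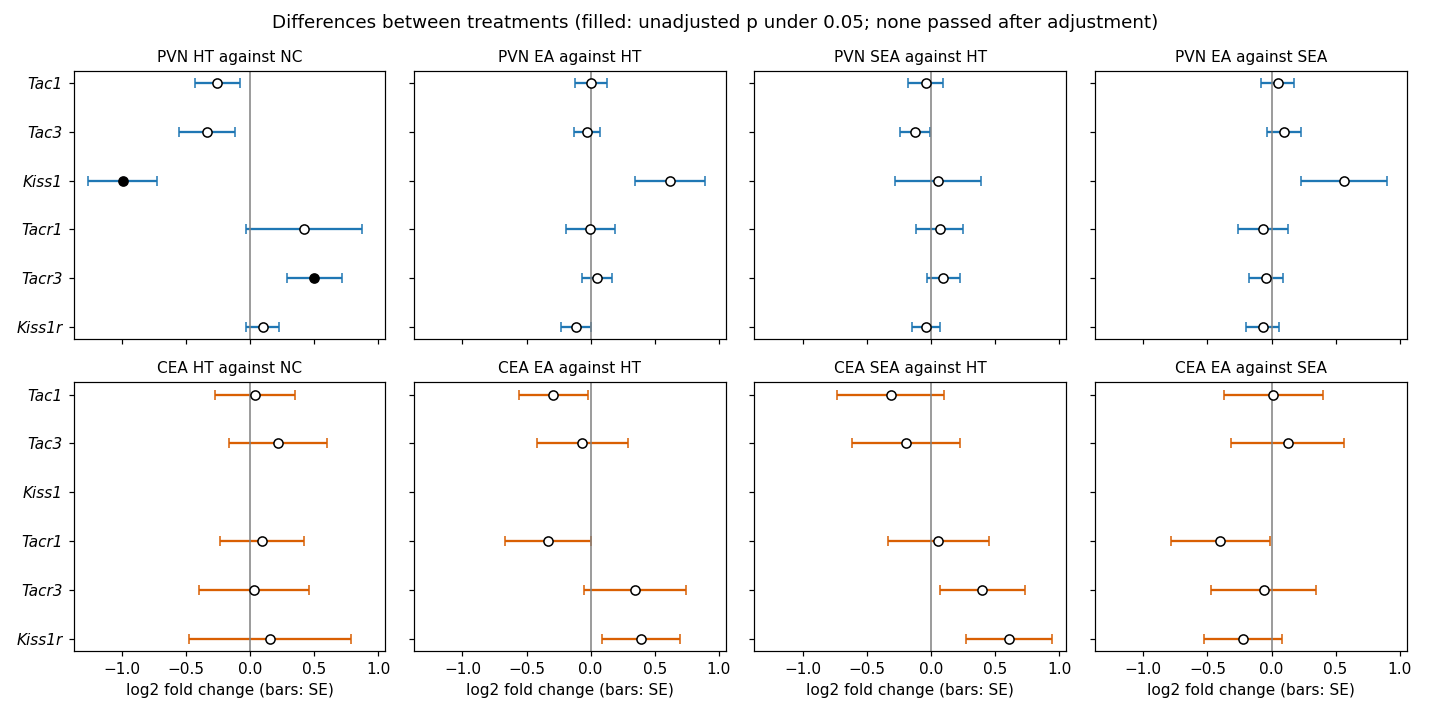
Log2 fold changes with standard errors of the 6 genes in 4 comparisons of treatments, PVN above and CEA below, filled where the unadjusted p was under 0.05; 0 passed after adjustment. Kiss1 and Tacr3 in PVN HT against NC are the filled points, and Kiss1 has no value in the CEA because its counts were too low.

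The 9 HT, EA and SEA libraries were also set together against the 3 NC libraries, a comparison added after the data were seen. By adjusted p, 0 of the 6 passed (0.0639% of all genes did), and by unadjusted p 3 did (29.8% of all genes), namely Tac3 at -0.39 (SE 0.15), Tacr3 at 0.55 (SE 0.16) and Kiss1 at -0.77 (SE 0.23). Tac1 was at -0.27 (SE 0.14), Tacr1 at 0.44 (SE 0.30) and Kiss1r at 0.04 (SE 0.11). DESeq2 called Tacr3 (adjusted p = 0.0141), gave no adjusted p for Kiss1 and Tacr1, and called 2392 genes in all. Without PVN NC replicate 2, edgeR called 4 of the 6 and 5885 genes in all. In the CEA the same comparison called 0 of 5 by adjusted p (0% of all genes) and 0 by unadjusted p (2.82%).

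Hepatectomy and needling were compared in the CEA for the 5 members other than Kiss1, whose CEA counts were below the filter. The spread between libraries of a group was wide, and 0 of the 5 passed in any of the 4 comparisons by adjusted or unadjusted p with edgeR or DESeq2. HT against NC gave 0.04 for Tac1 (SE 0.31), 0.22 for Tac3 (SE 0.38), 0.09 for Tacr1 (SE 0.33), 0.03 for Tacr3 (SE 0.43) and 0.16 for Kiss1r (SE 0.63), where 0% of all genes passed an adjusted p and 3.75% an unadjusted one.

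EA against HT in the CEA gave -0.29 for Tac1 (SE 0.27), -0.06 for Tac3 (SE 0.36), -0.33 for Tacr1 (SE 0.34), 0.35 for Tacr3 (SE 0.40) and 0.39 for Kiss1r (SE 0.31), where 0% and 3.19% of all genes passed. SEA against HT gave -0.31 for Tac1 (SE 0.42), -0.20 for Tac3 (SE 0.42), 0.06 for Tacr1 (SE 0.39), 0.40 for Tacr3 (SE 0.33) and 0.61 for Kiss1r (SE 0.33, unadjusted p = 0.109), where 0% and 3.07% passed. EA against SEA gave 0.02 for Tac1 (SE 0.39), 0.13 for Tac3 (SE 0.44), -0.40 for Tacr1 (SE 0.38), -0.06 for Tacr3 (SE 0.41) and -0.22 for Kiss1r (SE 0.31), where 0% and 1.99% passed.

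Kiss1r had the largest of these CEA values. Its means in NC, HT, EA and SEA were 2.45 ± 2.40, 2.68 ± 0.576, 3.55 ± 0.625 and 4.20 ± 1.46 CPM (SD, n = 3), but the NC libraries alone held 5.22, 0.947 and 1.19 CPM and so covered most of the range of the other groups. In the PVN the means of Kiss1r in the same order were 15.7 ± 1.63, 16.8 ± 0.362, 15.5 ± 2.25 and 16.3 ± 2.04 CPM. Tacr3 in the CEA had means of 3.96 ± 2.35, 3.97 ± 1.04, 5.09 ± 2.51 and 5.36 ± 1.90 CPM.

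Whether the treatment effects differed between regions was tested as an interaction over the 12 libraries of each pair of treatments. The HT effect in the PVN minus that in the CEA was -0.27 for Tac1 (SE 0.40), -0.53 for Tac3 (SE 0.49), 0.36 for Tacr1 (SE 0.59), 0.50 for Tacr3 (SE 0.50) and -0.03 for Kiss1r (SE 0.65). Of these 5, 0 passed an adjusted p (0% of all genes) and 0 an unadjusted p (12.1% of all genes). For Kiss1, which entered the fit through the PVN libraries alone, the difference could not be tested, and the fitted value was -1.03 (SE 1.01). When 1 library was left out that value ran from -3.15, with NC replicate 2 of the CEA dropped, to -0.46, with NC replicate 1 of that region dropped. For Tac3 it ran from -1.04 when the same NC replicate 1 was dropped to -0.21 when HT replicate 2 of the CEA was.

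The EA effect in the PVN minus that in the CEA was 0.30 for Tac1 (SE 0.32), 0.04 for Tac3 (SE 0.41), 0.34 for Tacr1 (SE 0.37), -0.28 for Tacr3 (SE 0.41) and -0.50 for Kiss1r (SE 0.27, unadjusted p = 0.0878). Again 0 of these 5 passed an adjusted p (0% of all genes) or an unadjusted p (4.52% of all genes), and DESeq2 called 0 of them in both interactions by either rule. The fitted value of Kiss1 was 0.78 (SE 0.62), again with no test.

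Of the 46 pathway genes on the 4 lists, 34 to 40 could be tested in each comparison of treatments or interaction, and 0 had an adjusted p under 0.05, where 0% to 0.0961% of all genes did. By unadjusted p, 12 of 39 were under 0.05 in PVN HT against NC, where 11% of all genes were. These were 7 of 18 Gq signalling genes, all with a higher mean in HT, among them Itpr1 at a log2 fold change of 0.89 (SE 0.28) and Plcb4, a phospholipase C, at 0.48 (SE 0.16), 2 of 9 of peptide processing, 2 of 7 of the reproductive axis and 1 of 5 of the other tachykinin and RF-amide genes. The count was 7 of 39 in PVN EA against HT (5.67% of all genes) and 19 of 40 when the operated PVN libraries were set against NC (29.8%). It was 0 to 6 in the remaining comparisons. The gene Plcb4 was named after its values were seen, as was Itpr1 here.

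Genes whose levels followed each member across libraries were sought by Pearson's r of log2 CPM after centring each region, among 14596 genes with a mean of at least 1 CPM, over all 24 libraries and as a description only. The libraries share their dissection and depth, and the highest r of many genes is high by selection. Tac1 was followed most closely by Syt6 (r = 0.92), Lmo3 (0.91) and Actn2 (0.91), and Tac3 by Tspyl2 (0.89), Cgref1 (0.86) and Ecel1 (0.86). Tacr1 was followed by Akap5 (0.81), Arhgef7 (0.80) and Ebf1 (0.80), and Tacr3 by Chrm5 (0.89), Syt10 (0.88) and Vstm2a (0.87).

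Kiss1r was followed by Lypd6b (0.92), Celf6 (0.91) and Impact (0.91), but this rested on the CEA. In the CEA alone r was 0.94, 0.93 and 0.95, and in the PVN alone it was 0.51, 0.28 and -0.12. For the 12 genes named with the other members, r was 0.67 or more within either region. Kiss1 had a mean of 0.871 CPM over the 24 libraries and was too low to be included.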

How the data were processed

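mRNA of the PVN and CEA was sequenced from strand-specific libraries. The authors deposited a table of raw counts, the number of reads assigned to each gene in each library; per the labels and the study's methods, reads were mapped with HISAT2 and counted with featureCounts, whose versions are not given in the sources used here. The methods name mRatBN7.2 and the labels a human build, but the coordinates run past the end of chromosome 1 of mRatBN7.2 and fit Rnor_6.0; this was not checked against a genome. The series' design text says mouse where the organism label and methods say rat. A stray second header line, which exchanges CEA EA replicates 2 and 3, was left out, and replicate numbers follow the titles. How reads from near-identical copies were counted was not stated.

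Counts were filtered with filterByExpr and TMM-scaled in edgeR 4.0.16 (R 4.3.3) and tested with its two-sided quasi-likelihood F-test, with Benjamini-Hochberg adjustment over all genes tested and a threshold of 0.05. The regions were compared over 24 libraries with treatment as a covariate, and pairs of groups on their own 6 libraries. The study reported counts for HT against NC and EA against HT, and does not state which libraries entered each fit. The study used DESeq2 with an unadjusted p; DESeq2 1.42.0 was run as an alternative, beside its size factors, no filter on low counts, a fit of all libraries of the region or series, a replicate block and leaving out each library. The tests were also run on simulated counts in which all genes shared a common spread. That run is no evidence on how they hold at the spread of these libraries. The members, gene lists and tests were chosen with earlier results of these data known. Text names all 6 members, up to 3 list genes in each direction with the largest change among adjusted calls, and the 3 genes most like each member in pattern. Among the comparisons, all pairs of same-numbered libraries had correlations over 0.1 only in CEA HT against NC (0.18 to 0.29), and the block changed no member's call there; between regions the NC pairs did (0.13 to 0.29) but the pairs of the other treatments did not all. Total counts per library and the limit set by a count of 0 are given with the results.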

Additional observations from a re-analysis of the deposited data

How the results depend on the processing

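Across the alternatives other than leaving out a library (DESeq2, its size factors, no filter on low counts, wider fits and the replicate block), 306 of 310 log2 fold changes kept their direction and side of the threshold. With the replicate block, Tacr1 between regions lost its call (0.47) and Tacr1 in CEA SEA against HT turned from 0.06 to -0.009; the block changed no other call. Tacr1 in PVN EA against HT turned to 0.0038 with no filter. Tacr3 in PVN operated against NC gained its call with DESeq2. In PVN HT against NC, 2 members had an unadjusted DESeq2 p under 0.05, and in PVN operated against NC DESeq2 called 1 member by adjusted and 3 by unadjusted p. The cause of these changes was not tested.

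Leaving out 1 library kept 540 of 624 log2 fold changes on their side, 74 changed sign, 3 lost and 7 gained a call; the causes were not tested. The count of members called ran from 0 to 3 in PVN HT against NC and from 0 to 4 in PVN operated against NC, with the highest counts without PVN NC replicate 2. Where a sign changed, the ranges were as follows. Between regions Tac3 ran from -0.17 to 0.018. In PVN EA against HT, Tac1 ran from -0.0945 to 0.13, Tac3 from -0.10 to 0.0479, Tacr1 from -0.0518 to 0.0778 and Tacr3 from -0.049 to 0.0958. In PVN SEA against HT, Tac1 ran from -0.13 to 0.083, Tacr1 from -0.0049 to 0.12, Tacr3 from -0.0176 to 0.20, Kiss1 from -0.16 to 0.30 and Kiss1r from -0.11 to 0.048. In PVN EA against SEA, Tac1 ran from -0.0806 to 0.15, Tac3 from -0.02 to 0.18, Tacr1 from -0.13 to 0.0162, Tacr3 from -0.15 to 0.0695 and Kiss1r from -0.18 to 0.0174. In CEA HT against NC, Tac1 ran from -0.29 to 0.37, Tac3 from -0.0966 to 0.72, Tacr1 from -0.19 to 0.29, Tacr3 from -0.22 to 0.62 and Kiss1r from -0.23 to 1.34. In CEA EA against HT, Tac1 ran from -0.43 to 0.0309, Tac3 from -0.31 to 0.26 and Tacr3 from -0.11 to 0.62. In CEA SEA against HT, Tac1 ran from -0.76 to 0.0214, Tac3 from -0.64 to 0.13 and Tacr1 from -0.32 to 0.34. In CEA EA against SEA, Tac1 ran from -0.32 to 0.47, Tac3 from -0.20 to 0.57, Tacr3 from -0.52 to 0.24 and Kiss1r from -0.43 to 0.067. In the HT interaction, Tac1 ran from -0.61 to 0.0589, Tacr1 from -0.0411 to 0.71, Tacr3 from -0.10 to 0.76 and Kiss1r from -1.22 to 0.37. In the EA interaction, Tac1 ran from -0.0144 to 0.44, Tac3 from -0.28 to 0.26 and Tacr3 from -0.56 to 0.15. In PVN operated against NC, Kiss1r ran from -0.0262 to 0.13. Of 68 values, 30 kept their sign whichever library was left out, and in 23 of these the largest was over 1.5 times the smallest in size. In PVN HT against NC, Tac1 ran from -0.39 to -0.0691, Tac3 from -0.56 to -0.13, Tacr1 from 0.0174 to 0.77, Tacr3 from 0.37 to 0.76 and Kiss1r from 0.0198 to 0.17. In the HT interaction, Kiss1 ran from -3.15 to -0.46 and Tac3 from -1.04 to -0.21. Kiss1 also ran from 0.44 to 0.73 in PVN EA against HT and from 0.32 to 0.78 in PVN EA against SEA. Kiss1r ran from 0.32 to 0.82 in CEA SEA against HT.

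Kiss1 and Tacr1 rested on few counts. Treatment comparisons in the CEA had wide errors, with groups of 3 libraries there as in the PVN, and the reason was not tested.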
